A study of Mus musculus with 8 samples.

Results

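The subunits of the ion channels that glutamate, GABA, glycine and acetylcholine open were examined in brain of mouse embryos at E12.5 bred to lack the transcriptional repressor REST in neural progenitors. Members were taken by gene symbol (beginning with Gria, Grik, Grin1 to Grin3, Gabra, Gabrb, Gabrg, Gabrd, Gabre, Gabrq, Gabrr, Glra, Glrb or Chrn), which gave 49 of the 18193 genes measured and 100 of 45037 probe sets, a probe set being the group of short probes that reads a transcript. Genes that fit the symbols but have no probe set named for them here are not analysed here. The 49 are 4 AMPA, 5 kainate, 6 NMDA, 14 GABA-A, 5 glycine and 15 nicotinic subunits. Total RNA was hybridised to Affymetrix mouse expression arrays, with 4 arrays of *Nestin Cre+*, *Rest* GTi/GTi embryos (knockout) and 4 of *Rest* GTi/GTi littermates without Cre (controls), all of the C57/BL6 strain. Both genotypes are homozygous for a gene trap in *Rest* that lies inverted, and Cre turns it to the trapping orientation. *Nestin Cre* acts in nestin-positive progenitors and the cells that descend from them, so other cells of the dissected tissue keep *Rest*, and the transgene and the loss of REST cannot be told apart. The labels call the arrays biological replicates but do not say whether each holds 1 embryo or several.

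Ligand-gated receptors are rings of subunits around a pore that opens when a transmitter binds. Glutamate receptors (AMPA, kainate and NMDA types) and nicotinic receptors pass cations and excite the cell, whereas GABA-A and glycine receptors pass chloride, and the choice of subunits sets the speed, ion selectivity and pharmacology of a receptor. Several of these genes, *Gria2*, *Glra1* and *Chrnb2* among them, are known to carry an RE1, the DNA element through which REST represses neuronal genes in cells that are not neurons, and the comparison asks whether subunit transcripts differ once REST is lost from progenitors.

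All values are normalized intensities, and a fold change is the ratio of intensities after 16 had been added, so that changes of genes near or under 16 are understated. The 8 neuronal and 8 progenitor markers checked all had means over 100, which fits the labelled tissue. *Rest* itself read 163, 217, 84.4 and 134 on knockout arrays 1 to 4 and 170, 272, 211 and 198 on control arrays 1 to 4 (log2 fold change -0.51, SE 0.25), and the array labelled knockout 2 lay within the control range. The arrays also differed in markers of other cells and regions. A list of 12 mesenchymal genes lay above the control mean by 2.16 and 3.33 (mean log2) on knockout arrays 1 and 2 and between -0.36 and 0.36 on the other 6, and all 10 microglial genes were higher on all knockout arrays (1.25 to 1.47). In whole brain, fewer cells of a type and less RNA per cell cannot be told apart.

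None of the 49 subunits was called at an adjusted p under 0.05, against 0.225% of all genes (41 of 18193), in limma's moderated test with Benjamini-Hochberg adjustment over all probe sets. The lowest adjusted p was 0.631, for the kainate subunit *Grik4*. There were 27 subunits above 0 and 22 below, with a median log2 fold change of 0.02 against -0.001 over all genes. At an unadjusted p under 0.05, 1 subunit was higher (*Glra3*) and 4 were lower (*Grik4*, *Gabrq*, *Chrna5* and *Chrng*), 5 of 49 in all, where 6.97% of all genes passed. The genotypes did not overlap for 1 higher subunit, *Gabrg1* (2.48% of all genes), and for 1 lower subunit, *Chrna5* (2.15% of all genes). Over the 100 probe sets, 2 were higher and 7 lower at an unadjusted p under 0.05 (6.87% of all probe sets), with no overlap for 1 higher (1.87% of all) and 2 lower (2.14% of all).

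The size of change that these arrays leave possible depends on brightness. Of the 22 subunits with a mean over 50, 19 had a 95% confidence interval that ended below a 1.5-fold rise, and 18 had one within 1.5 fold in both directions. The other 4 were *Grik3*, *Grin3a*, *Gabrb1* and *Glrb*, whose arrays scattered more. Among all 11220 genes with a mean over 50, 10184 had an interval within 1.5 fold. For the 20 subunits with a mean under 16 the intervals say little, since the added constant compresses them.

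**Figure D1:**
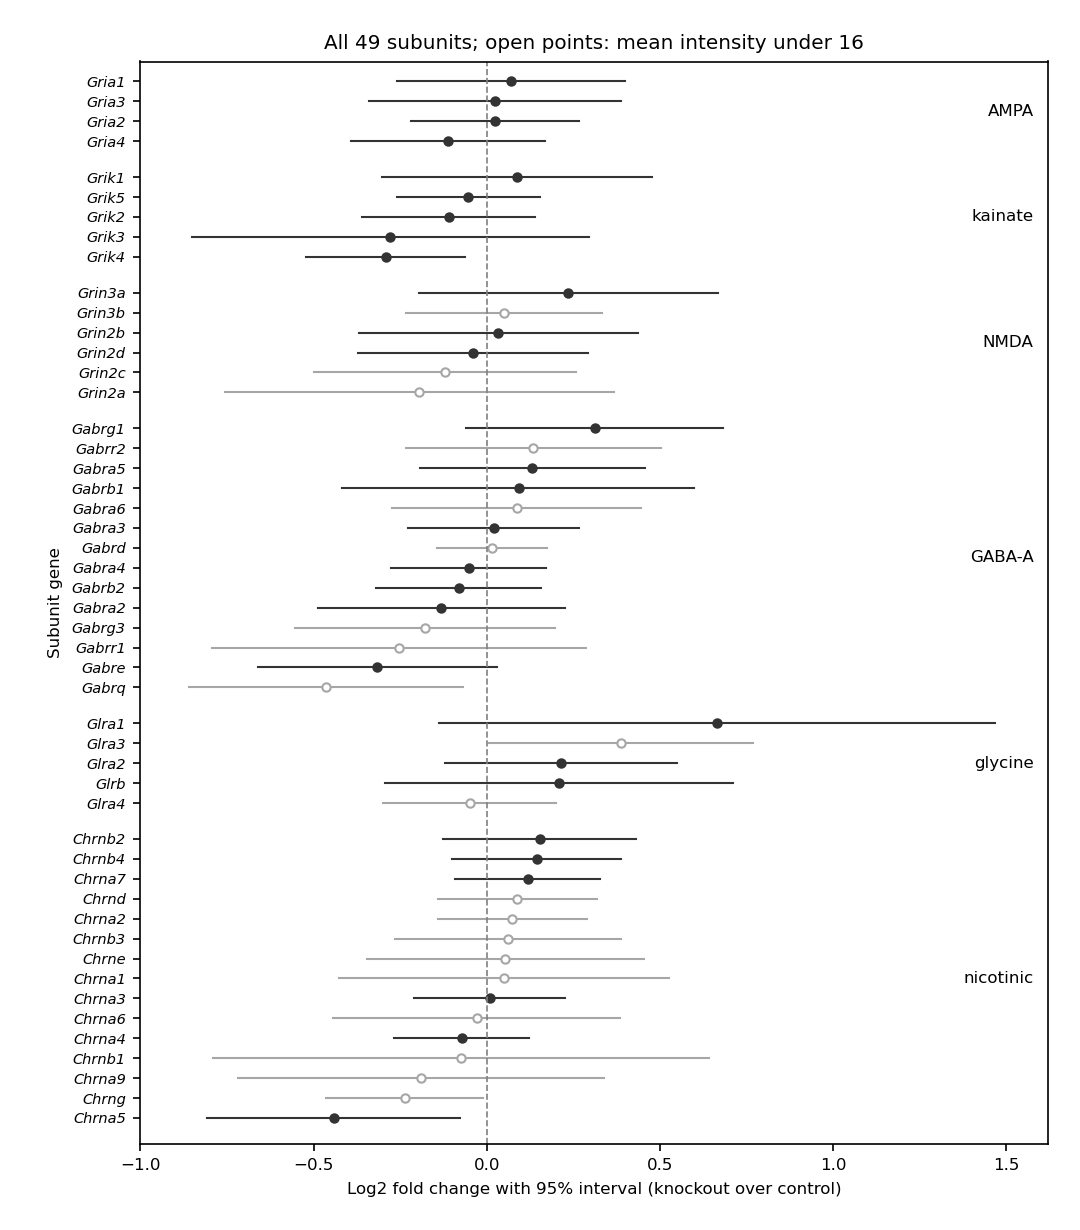
Log2 fold change of the brightest probe set of each of the 49 subunits (points, knockout over control) with its 95% confidence interval (lines), grouped by receptor family, with open points for means under 16. Intervals of 44 subunits hold 0, the family medians lie between -0.11 (kainate) and 0.21 (glycine), and *Glra1* has the widest interval, from -0.14 to 1.47.

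AMPA receptor subunits, which carry fast excitation, did not differ between the genotypes beyond the spread of the arrays. All 4 were bright, with log2 fold changes from -0.11 to 0.07, and all 4 intervals lay within 1.5 fold. *Gria2*, whose edited product makes the channel almost impermeable to calcium, was of most interest as a gene known to carry an RE1. The core of that element was therefore looked for in promoters. Among 300-base windows of RefSeq promoters (250 bases before to 50 after the start, build GRCm38.p6), the core AGCACCNNGGACAG was found on either strand in 17 of 32851, or 0.0517%. This spelling was taken after one with 1 letter more had matched 12 windows, none of them of a subunit. A window was at hand for 37 of the 49 subunits and for 12, *Glra1* among them, none was, and *Gria2* was the only subunit with a match. The window lies at chr3:80802786-80803085 on the minus strand, and the match, at 80802992 to 80803005, begins 170 bases before the start and reads on the opposite strand of the window (capitals below).

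*Gria2* promoter: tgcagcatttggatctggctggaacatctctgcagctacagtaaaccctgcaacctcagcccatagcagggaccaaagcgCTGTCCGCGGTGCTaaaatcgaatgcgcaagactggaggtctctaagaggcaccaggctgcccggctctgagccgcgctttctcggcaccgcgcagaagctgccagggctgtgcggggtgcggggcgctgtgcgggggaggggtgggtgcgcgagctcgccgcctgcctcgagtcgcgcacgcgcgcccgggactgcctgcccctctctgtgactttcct

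Intensities of *Gria2* were 1282, 1513, 1788 and 1582 on knockout arrays 1 to 4 and 1578, 1383, 1583 and 1483 on control arrays 1 to 4. The lowest and the highest value were both knockout arrays, and the controls lay between them. The log2 fold change was 0.02 (SE 0.11, 95% interval -0.22 to 0.27, exact two-sided permutation p = 0.857, n = 4 arrays per genotype), and as a ratio the interval ran from 0.859 to 1.204. A pair of further probe sets gave 0.01 and 0.06. Of the genes whose promoter window holds the core, 13 are on the array, and none was called. Of these 13, 8 were above 0, where 9002 of all 18193 genes were. An unadjusted p under 0.05 was reached by 2 of the 13, where 6.97% of all genes passed: *Hrh3* (0.24, SE 0.08) and *Gad2* (-0.33, SE 0.13). The match is one of letters only and does not show that REST binds there.

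*Gria3* read 116, 174, 218 and 168 in knockouts and 150, 158, 164 and 177 in controls (0.02 on the log2 scale). *Gria4* read 372, 360.4, 515 and 486 in knockouts and 481, 458, 477 and 439 in controls (-0.11). In both genes the knockout values spread around the controls. *Gria1* gave 0.07. All 4 AMPA subunits were lowest in knockouts on array 1 or 2 and highest on array 3, and their mean log2 level against the controls was -0.31, -0.07, 0.28 and 0.12 on knockout arrays 1 to 4. The 8 neuronal markers ran the same way across these arrays (-0.27, -0.02, 0.18 and 0.06), and their part in the subunit values was not tested.

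Kainate receptor subunits, which tune transmitter release and excitability, gave the only bright subunit with an unadjusted p under 0.05. *Grik4*, a high-affinity subunit that forms channels only together with others, read 41.1, 56.5, 48.8 and 47.0 in knockouts and 52.3, 64.9, 64.2 and 69.7 in controls. A control array (52.3) lay below the highest knockout array, so the genotypes overlapped. The log2 fold change was -0.29 (SE 0.10, limma p = 0.0188, adjusted p = 0.631; exact two-sided permutation p = 0.0571). In the alternatives run it lay between -0.37 and -0.20, and it was called in none of them.

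The other kainate subunits overlapped widely. *Grik3* gave 157, 272, 393 and 319 in knockouts and 396, 288, 287 and 373 in controls, and its log2 fold change of -0.28 (SE 0.25) came from knockout array 1, since without that array it was -0.03. *Grik5* gave 490, 597, 630.1 and 566 in knockouts and 579, 631, 597 and 557 in controls (-0.05). *Grik2* gave 101, 114, 120 and 141 in knockouts and 121, 119, 150 and 128 in controls (-0.11). Knockout array 1 was the lowest of the 8 for each of these 3 genes, and the kainate mean there was -0.47 against the controls. *Grik1* was at 0.09 on its brightest probe set, whereas a further one, with a mean of 34.3, was at -0.34, and there the genotypes did not overlap: 32.4, 33.8, 20.8 and 27.6 in knockouts and 43.8, 38.1, 37.5 and 40.6 in controls (adjusted p = 0.57). That is the lowest adjusted p of the 100 probe sets, and the direction of *Grik1* turned with the probe set read.

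**Figure D2:**
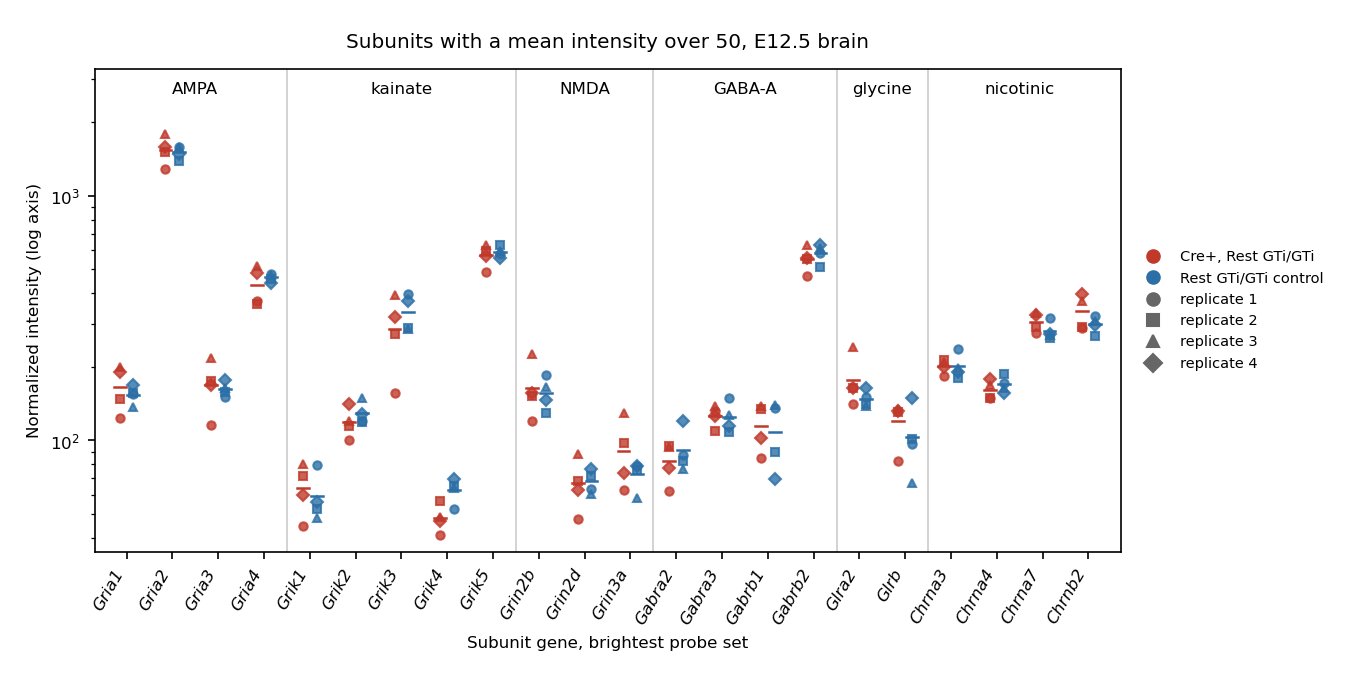
Normalized intensity (log axis) of the 22 subunits with a mean over 50 on each of the 8 arrays, with symbols for replicates and bars for genotype means. Knockout array 1 (red circles) is often the lowest point and knockout array 3 (red triangles) the highest, around control values in the same range, as for *Gria2* (1282 and 1788 on these 2 arrays).

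NMDA receptor subunits split evenly, 3 above 0 and 3 below, and 3 of the 6 had a mean under 16. The obligatory subunit gene *Grin1* is not analysed here. *Grin2b*, the main partner of that subunit in the embryonic brain, read 120.2, 152, 226 and 156 in knockouts and 185, 130.1, 166 and 146 in controls, with a log2 fold change of 0.03 (SE 0.18). *Grin2d*, another embryonic partner, read 47.7, 68.6, 88.4 and 62.7 in knockouts and 63.6, 71.3, 60.7 and 76.6 in controls (-0.04). Both knockout groups reached below and above all control arrays.

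*Grin3a*, which lowers the calcium permeability of NMDA receptors, depended on the probe set. The brightest gave 62.8, 97.2, 130.1 and 73.4 in knockouts and 78.6, 75.5, 58.1 and 78.5 in controls, a log2 fold change of 0.24 (SE 0.19, adjusted p = 0.877) that was 0.07 without knockout array 3. A further probe set of similar brightness (mean 70.0) gave 44.2, 48.0, 75.8 and 81.8 in knockouts and 85.0, 60.4, 82.0 and 83 in controls, a log2 fold change of -0.28 (SE 0.18, adjusted p = 0.822). Neither separated the genotypes, and another, dimmer one stood at 0.27. *Grin2a* and *Grin2c*, subunits of the more mature brain, had means of 7.54 and 8.07.

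GABA-A receptor subunits, which form the main inhibitory chloride channel of the mature brain, were even as well, 7 above 0 and 7 below with a median of -0.02. The brightest 3 lay close to the controls. *Gabrb2* read 472, 554, 627 and 556 in knockouts and 583, 510, 614 and 628 in controls, a log2 fold change of -0.08 (95% interval -0.32 to 0.16). *Gabra3* read 132, 109, 138 and 126 in knockouts and 149, 108, 127 and 115 in controls (0.02, 95% interval -0.23 to 0.27). *Gabrb1* read 84.6, 134, 138 and 103 in knockouts and 136, 89.4, 140 and 69.6 in controls (0.09, 95% interval -0.42 to 0.60). All 3 overlapped, and for *Gabrb1* each genotype had a pair of high and a pair of low arrays.

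*Gabrg1*, a gamma subunit, was the only subunit with every knockout array above every control. It read 53.6, 25.8, 25.4 and 30.5 in knockouts and 22.5, 24.6, 20.6 and 25.3 in controls. The lowest knockout value (25.4) and the highest control value (25.3) almost touched, and knockout array 1 stood well above the rest. The log2 fold change was 0.31 (SE 0.16, adjusted p = 0.778), and without knockout array 1 it was 0.14. The exact two-sided permutation p was 0.0286, the smallest that 4 arrays against 4 can give. Any groups without overlap give that value, so it adds nothing to the lack of overlap. A further, dim probe set of the gene (mean 9.54) stood at -0.20. *Gabrg1*, *Gabra2*, *Gabra4* and *Gabrb1* are neighbours in the mouse genome, and the other 3 stood at -0.13, -0.05 and 0.09.

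The lowest log2 fold change of the 49 was that of *Gabrq*, a theta subunit gene with values near or under the added constant. It read 3.0, 3.4, 1.8 and 3.1 in knockouts and 2.5, 12.4, 19.0 and 8.8 in controls. Control array 1 was as low as the knockouts (log2 fold change -0.46, SE 0.17, limma p = 0.0269, adjusted p = 0.674, exact p = 0.114). Both controls with the highest *Gabrq* values, arrays 2 and 3, lack the Y-linked signal of *Eif2s3y* that all knockouts have, and against the other 2 controls the log2 fold change was -0.18. *Gabre*, encoding the epsilon subunit, read 18.7, 12.4, 11.7 and 12.1 in knockouts and 18.5, 29.0, 25.6 and 12.4 in controls (-0.32, SE 0.15, adjusted p = 0.756). Here too the groups overlapped, control arrays 2 and 3 were the highest, and against the other 2 controls the log2 fold change was -0.08. Of the 14 subunits 6 had a mean under 16, among them *Gabra6*, *Gabrd* and *Gabrr2*.

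Glycine receptor subunits were the family with the highest median log2 fold change, 0.21, with 4 of 5 above 0, and none was called. *Glra1*, the alpha subunit of the adult receptor of spinal cord and brainstem, read 19.8, 35.4, 76.5 and 51.1 in knockouts and 47.1, 17.9, 7.8 and 19.5 in controls. Knockout arrays 3 and 4 were the highest, yet knockout array 1 was like 2 of the controls and control array 1 was close to knockout array 4. The log2 fold change of 0.67 was the largest of the 49 (SE 0.35, 95% interval -0.14 to 1.47, adjusted p = 0.783, exact two-sided permutation p = 0.143). It lay between 0.44 and 0.93 when 1 array was left out and was 0.30 against the 2 controls with the *Eif2s3y* signal, and a further probe set, near 16, gave 0.15 (SE 0.13).

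*Glra1* was high on the arrays on which genes of caudal regions were high. The 4 arrays on which it was highest, knockout arrays 3, 4 and 2 and control array 1, were also the 4 highest for a list of 11 Hox genes that mark hindbrain and spinal cord. The mean log2 level of that list against the controls was -0.53, 0.61, 2.09 and 1.18 on knockout arrays 1 to 4 and 0.72, -0.31, -0.37 and -0.03 on control arrays 1 to 4. *Hoxb3*, the member with the largest change, read 1.8, 179, 746 and 435 in knockouts and 173, 6.9, 9.3 and 12.8 in controls. Not every member ran this way: 9 of the 11 were above 0, and *Hoxa4* (-0.15) and *Hoxa5* (-0.23) were below. On control array 1 *Hoxb4*, *Hoxb5* and *Hoxc4* read only 8.3, 0.5 and 0.9, so the list mean there came from other members. *Slc6a5*, the glycine transporter of glycinergic neurons, was looked up after its values had been seen and read 13.7, 28.3, 101 and 58.7 in knockouts and 54.3, 10.6, 10.4 and 27.0 in controls. The part of caudal tissue in the *Glra1* values was not tested.

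**Figure D3:**
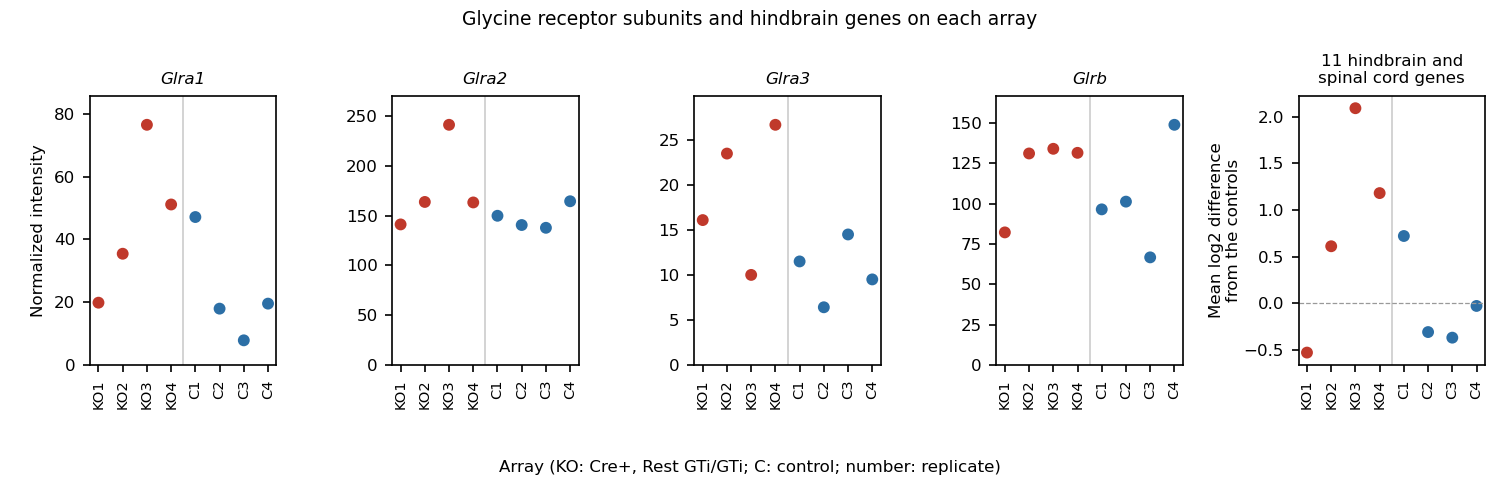
Normalized intensity of 4 glycine receptor subunits on each array (4 panels on the left, red knockout and blue control, each with its own axis), beside the mean log2 difference of 11 hindbrain and spinal cord genes from the control mean (right panel). *Glra1* and the Hox list share their 4 highest arrays, with 76.5 and 2.09 on knockout array 3 and 47.1 and 0.72 on control array 1.

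The other glycine subunits had smaller differences and overlapped. *Glra2*, the embryonic alpha subunit, read 141, 164, 241 and 163 in knockouts and 150, 141, 138 and 165 in controls, with a log2 fold change of 0.21 (SE 0.15, adjusted p = 0.844) that was 0.07 without knockout array 3. *Glrb*, which anchors the receptor to gephyrin, read 82.2, 131, 134 and 132 in knockouts and 96.5, 101, 66.7 and 149 in controls (0.21, SE 0.22). *Glra3* read 16.1, 23.5, 10 and 26.7 in knockouts and 11.5, 6.4, 14.5 and 9.5 in controls. Of these values of *Glra3*, 3 knockout arrays exceeded all controls and knockout array 3, the highest for the Hox list, did not (0.39, SE 0.17, limma p = 0.0471, adjusted p = 0.723, exact p = 0.114). A further, dim probe set of *Glra3* (mean 3.74) stood at -0.06. *Glra4* was dim (mean 1.71).

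Of the 15 nicotinic subunits, 4 had a mean over 50, all of them of neuronal receptors, and none of the 4 separated the genotypes. *Chrnb2*, the beta subunit of the most common brain receptor, read 287, 290.1, 372 and 398 in knockouts and 323, 267, 309 and 296 in controls. Knockout arrays 3 and 4 were above all controls and arrays 1 and 2 were not (0.15, SE 0.12, 95% interval -0.13 to 0.43, adjusted p = 0.877, exact p = 0.314). Further probe sets of *Chrnb2* gave 0.07 (mean 51.5) and -0.12 (mean 29.8), both with overlapping groups. *Chrna7*, which forms receptors on its own, read 274, 291, 333 and 325 in knockouts and 317, 263, 269 and 273 in controls (0.12, SE 0.09), whereas its dim further probe set (mean 14.3) stood at -0.44. *Chrna4*, the usual partner of *Chrnb2*, stood at -0.07. *Chrna3*, of autonomic ganglia and habenula, read 183, 214, 209 and 201 in knockouts and 236, 179, 199 and 190 in controls, a log2 fold change of 0.01 (95% interval -0.21 to 0.23).

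*Chrna5*, an accessory subunit that joins these receptors, was the only subunit with every knockout array below every control. It read 27.9, 11.6, 20.9 and 28 in knockouts and 29.8, 41.0, 30.6 and 39.3 in controls, with 28 and 29.8 as the nearest pair. The log2 fold change was -0.44 (SE 0.16, 95% interval -0.81 to -0.08, limma p = 0.0234, adjusted p = 0.664), and the exact two-sided permutation p was 0.0286. A further probe set of similar brightness gave -0.29 (SE 0.19) with overlapping groups. *Chrna5* lies beside *Chrna3* and *Chrnb4* in the mouse genome, and *Chrnb4* stood at 0.14 (SE 0.11).

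Subunits of the muscle receptor all had means under 16, with 3 arrays of *Chrnb1* and 1 of *Chrna1* above it. *Chrnb1* read 1.8, 31.1, 10.2 and 7.0 in knockouts and 2.2, 17.6, 17.9 and 13.8 in controls (-0.07, SE 0.31). Its highest value, on knockout array 2, coincided with the array on which 18 skeletal muscle genes were highest (mean log2 0.76, against -0.07 to 0.13 on the others), and the part of muscle in it was not tested. *Chrna1* read 3.9, 7.5, 11.7 and 10.5 in knockouts and 1.5, 17.5, 3.4 and 10.3 in controls (0.05).

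The remaining muscle subunits were far below the added constant on nearly every array. *Chrnd* read 7.5, 2.6, 1.8 and 2.5 in knockouts and 2.6, 1.7, 3.6 and 1.4 in controls (0.09). *Chrne*, of the adult endplate, read 10, 3.2, 2.9 and 3.1 in knockouts and 1.7, 1.0, 2.7 and 11.6 in controls (0.05). *Chrng*, of the fetal endplate, read 2.3, 2.7, 1.9 and 1.7 in knockouts and 5.6, 9.3, 4.8 and 2.4 in controls, a log2 fold change of -0.24 (SE 0.10, limma p = 0.0424, adjusted p = 0.713, exact two-sided permutation p = 0.0571), with all 8 values far below 16, where small differences cannot be read.

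Further probe sets over 50 mostly stood within 0.2 of the brightest on the log2 scale. Of the 49 subunits, 31 had several probe sets, up to 5. Of 18 further probe sets with a mean over 50, in 13 genes, 17 had a log2 fold change within 0.2 of the brightest one, and *Grin3a* was the exception. Most bright subunits stood near 0 themselves, so this closeness is a weak sign of agreement. *Gabra2*, for example, passed with -0.13 on its brightest probe set and 0.07 on a further one. Dimmer probe sets differed more, as for *Grik1*, *Grin2d*, *Chrna7*, *Gabrg1*, *Glra1* and *Glra3* above.

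**Figure D4:**
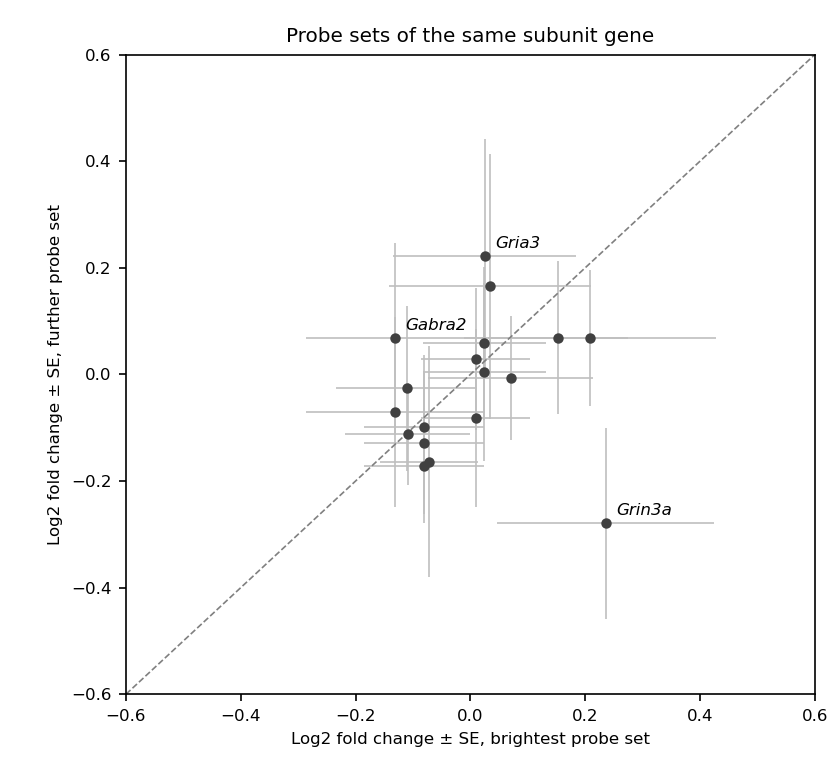
Log2 fold change of 18 further probe sets with a mean over 50 (vertical axis) against that of the brightest probe set of the same subunit gene (horizontal axis), with standard errors as bars and equality as the dashed line. *Grin3a* lies at 0.24 and -0.28, and the other 17 points are within 0.2 of the line.

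The counts moved without the 2 arrays high in mesenchymal genes. The knockout arrays that remain, 3 and 4, differ in other tissue too. They were the highest of all arrays for the Hox list (2.09 and 1.18). Their means of the neuronal markers were 0.18 and 0.06, against -0.27 and -0.02 on knockout arrays 1 and 2. The part of these differences in the counts was not tested. With knockout arrays 3 and 4 only against the 4 controls, the median over the 49 was 0.11, with 33 above 0 and 16 below, against a median of 0.002 over all genes. At an unadjusted p under 0.05, 5 subunits were then higher and 2 lower. The share of all genes that passed in this comparison was not counted. These counts therefore have no background beside them and cannot show whether the subunits differ from other genes. No subunit was called, but in this smaller comparison no gene of all 18193 was, so that count says nothing of stability. On these 2 arrays *Glra1* stood at 1.10 and *Chrnb2* at 0.35, and the mean of the 22 bright subunits was 0.24 and 0.05 above the controls, where it had been -0.28 and 0.01 on knockout arrays 1 and 2. All knockouts and 2 of the 4 controls had the signal of the Y-linked *Eif2s3y*, and against these 2 male controls the median was -0.03, with no subunit called, where 7 genes of all were.

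Genes that work with the receptors were looked at in the same way. None of 34 auxiliary and anchoring proteins (among 36 listed), which traffic receptors and hold them at the synapse, reached an unadjusted p under 0.05, with 12 above 0 and 22 below. The same held for metabotropic receptors of the same transmitters (10 of 15 listed were measured, 7 above and 3 below) and for ligand-gated channels outside the symbol rule (11 of 12 measured, 3 above and 8 below). Of the genes of transmitter synthesis and transport 19 of 22 were measured, none was called, and 2 higher and 2 lower passed at an unadjusted p under 0.05, where 6.97% of all genes did.

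*Slc18a3*, the vesicular acetylcholine transporter, had the lowest adjusted p of these partner genes. It read 18.6, 21.0, 28.1 and 30.5 in knockouts and 5.7, 4.8, 2.3 and 12.6 in controls, every knockout array above every control. The log2 fold change was 0.87 (SE 0.15, adjusted p = 0.151), at intensities near the added constant, while *Chat*, which makes acetylcholine and shares its locus, stood at 0.01 (SE 0.13).

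The enzymes that make GABA had lower means in knockouts, with overlap and no call. *Gad1* read 968, 1358, 1549 and 1313 in knockouts and 1730.1, 1471, 1665 and 1626 in controls (-0.34, SE 0.14, adjusted p = 0.7). *Gad2* read 680.4, 727, 927 and 855 in knockouts and 1063, 1049, 1098 and 810.2 in controls (-0.33, SE 0.13, adjusted p = 0.693). The promoter window of *Gad2* holds the RE1 core searched for above. *Slc12a2*, the transporter that loads immature neurons with chloride, read 1524, 1641, 1350.1 and 1811 in knockouts and 1396, 1289, 1394 and 1237 in controls (0.24, SE 0.10, adjusted p = 0.703). Knockout array 3 (*Gad1* and *Slc12a2*) or control array 4 (*Gad2*) crossed into the range of the other genotype. Of the telencephalic markers, *Dlx1*, *Dlx2* and *Dlx5*, which mark the ventral progenitors and neurons that make GABA, were looked up after their values had been seen. Their log2 fold changes were -0.68 (SE 0.12, adjusted p = 0.166), -0.56 (SE 0.09, adjusted p = 0.0944) and -0.46 (SE 0.08, adjusted p = 0.12), with every knockout array below every control for each, and none was called. Of the other telencephalic markers measured, *Emx1* stood at 0.55 (SE 0.215), *Emx2* at -0.08, *Lhx2* at -0.01 and *Six3* at -0.22 (SE 0.105). For none of these other markers did the genotypes separate. The part of the *Dlx* genes in the *Gad1* and *Gad2* values was not tested.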

How the data were processed

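Arrays of 4 knockout and 4 control samples were compared. The authors' methods describe RMA followed by log2 and a t-test per probe set adjusted for multiple tests, and RMA is also named in the labels, with no version. The deposited intensity values are linear and unscaled, with array medians of 40.9 to 68, which RMA output does not have, and which step made them is not stated. The table holds 45101 probe sets, from which 64 Affymetrix control probe sets were removed. Of the 45037 tested, the platform annotation names 1 gene for 34945, several for 932 and none for 9160. Values were quantile normalized, 16 was added, log2 was taken, and lmFit and eBayes of limma 3.58.1 (R 4.3.3) were fitted, with Benjamini-Hochberg adjustment over all probe sets and calls at 0.05. Each gene is represented by its probe set with the highest mean. Alternatives changed the test, the scaling, the constant, the filter on dim probe sets, the choice of probe set, the covariates and the arrays used. Limma's p-values set the difference between genotypes against the spread between arrays of the same genotype, moderated over all probe sets. Exact p-values rank that difference among all divisions of the arrays into groups of this size. The number of arrays limits precision. Levels of different probe sets were not set against each other.

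The members and gene lists were chosen with earlier results of these data known. Values on every array are given for subunits with an RE1 known from general knowledge or named by the study, those with an unadjusted p under 0.05 or no overlap, the brightest 3 of each family, the muscle subunits, the 3 largest changes each way, and those whose bright probe sets differ by over 0.5, and partner genes are named at an unadjusted p under 0.05. A longer spelling of the RE1 core, with 1 letter more, was tried before the one given and occurred in 12 windows, none of them of a subunit. The build of the probe annotation is not given in the sources used here, so coordinates are those of RefSeq on GRCm38.p6.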

Additional observations from a re-analysis of the deposited data

Results flagged for a closer look

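In 5 of 58 genotype groups of the 29 subunits whose array values are given, 1 array stood apart from the other 3 of its genotype by Dixon's criterion at 95%, which chance alone flags in about 1 group in 20. Knockout array 1 was the one that stood apart in 4 of the 5. It had the lowest *Glrb* intensity of its genotype, 82.2, and the highest of *Gabre*, 18.7, of *Chrnd*, 7.5, and of *Chrne*, 10, the last 2 far below the added constant. Control array 3 had the lowest *Grin3a* intensity of the controls, 58.1.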

How the results depend on the processing

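Over 24 alternatives, no subunit was called in any, and the lowest adjusted p of any subunit was 0.301 (*Gabrq* without control replicate 1). At an unadjusted p under 0.05, 0 to 5 were higher and 0 to 5 lower. The shares of all genes that passed in the alternatives were not counted, so these counts have no background beside them. The median log2 fold change of the 49 ran from -0.026 to 0.106: it was 0.106 with knockout replicates 3 and 4 only and -0.026 to 0.05 when 1 array was left out. Without scaling it was 0.061, where all genes moved to 0.05. Of the 29 named subunits, 11 kept their sign in every alternative, and 18 changed it at least once; the cause was not tested. Values that turned were *Gria2* -0.053, *Gria3* -0.006, *Gabra3* -0.01 and *Chrna3* -0.029 with a common median, *Grik5* 0.001 and *Grin2d* 0.046 without scaling, and *Grin2b* -0.054, *Chrna3* -0.015 and *Chrna7* -0.159 with the mean of all probe sets. With the *Eif2s3y* covariate and against the male controls alone (2 arrays), in this order, *Grik5* was 0.001 and 0.001, *Grin2b* -0.031 and -0.041, *Gabra3* -0.04 and -0.051, *Glrb* -0.059 and -0.026, *Chrna3* -0.068 and -0.069, *Chrnb1* 0.178 and 0.194, and *Chrne* -0.108 and -0.101. With knockout replicates 3 and 4 only, *Gria4* was 0.106, *Grik2* 0.014, *Grik3* 0.088, *Grik5* 0.016, *Grin2d* 0.114, *Gabrb2* 0.02, *Chrnd* -0.012 and *Chrne* -0.062. Leaving out 1 array turned *Gria2* (-0.05 to 0.109), *Gria3* (-0.098 to 0.178), *Grik5* (-0.102 to 0.016), *Grin2b* (-0.121 to 0.156), *Grin2d* (-0.157 to 0.081), *Gabra3* (-0.038 to 0.099), *Gabrb1* (-0.075 to 0.214), *Chrna1* (-0.089 to 0.225), *Chrna3* (-0.04 to 0.084), *Chrnb1* (-0.348 to 0.121), *Chrnd* (-0.002 to 0.131) and *Chrne* (-0.058 to 0.213).

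Arrays of the same replicate number did not deviate together (residual correlations -0.13 to 0.01, and -0.06 to 0.11 between other numbers). The main fit therefore did not pair them. These correlations also carry the tissue differences between single arrays, so they cannot show whether the numbers stand for shared litters. With a replicate block, no subunit was called, the median was 0.02, and 0 genes of all were called, against 41 without it. Over all genes, calls were 14 by the methods' t-test with equal variances and 0 with unequal variances, 2 without scaling, 26 with a constant of 1, 21 to 31 with 1 array left out, 7 against the 2 male controls, 14 with the *Eif2s3y* covariate and 0 with knockout replicates 3 and 4 only. The signal over background limits the 20 subunits with a mean under 16, whose fold changes are understated.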
